A study of Mus musculus with 4 samples.

Results

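The genes described here code for the enzymes and carriers of glycolysis, of the pyruvate dehydrogenase step, of the pentose phosphate pathway and of the citric acid cycle. Of 47 symbols named for these routes, 46 matched 1 gene each among the 36808 genes of every deposited table. The symbol Pkm had no match of its own, and muscle pyruvate kinase was listed under its older symbol Pkm2. Glycolysis, taken from glucose uptake to lactate export, had 23 genes, pyruvate dehydrogenase and its kinase 4, the pentose phosphate pathway 7 and the citric acid cycle 12. They were taken by pathway membership, with earlier results of these data known.

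Glycolysis splits glucose into pyruvate in the cytosol and yields a small amount of ATP without oxygen. Lactate dehydrogenase turns pyruvate into lactate, which leaves the cell, while pyruvate dehydrogenase carries pyruvate into the mitochondrion for the citric acid cycle. The pentose phosphate pathway branches off after the first glycolytic step and supplies NADPH and ribose. In the early mouse embryo, glycolysis is known to be very active around gastrulation, and mitochondrial oxidation is known to gain weight as the circulation and placenta start to work.

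RNA from whole mouse embryos was sequenced by directional mRNA-seq in 4 groups with 1 library each: Tc/Tc at E10, wild type at E10, Tc/Tc at E8 and wild type at E8. The mutant allele Tc belongs to the gene T (Brachyury), whose T-box transcription factor acts in the primitive streak and notochord. The mice were of (C3H/HeH x 101/H)F1 origin, and the stages were E10.0 to 10.5 (E10) and E7.5 to 8.0 (E8). The sources used here do not say how many embryos went into a library. A whole embryo mixes all its tissues, so fewer cells of a type and less RNA per cell cannot be told apart.

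Total FPKM (fragments per kilobase of transcript, scaled by the mapped fragments of the library) was 598365 to 737448 per library, and the read depth is unknown. T itself stood at 30.4 FPKM in Tc/Tc and 7.18 FPKM in wild type at E10, and at 48.3 FPKM in Tc/Tc and 36.7 FPKM in wild type at E8, which does not tell the alleles apart. Ratios are on the log2 scale with 1 FPKM added to each value, so changes of low genes are understated, and cover genes at 1 FPKM or more in 1 or both libraries. A gene is called higher or lower past a fold of 2, a log2 ratio of 1. With 1 library per group this rule only describes the libraries, without replicates or a test. Of the 4 libraries, 3 occur in a second table as well, and the SD of log2 between both estimates was 0.192 in the Tc/Tc library of E8, and 0.179 at E10 and 0.0185 at E8 in wild type, over 41 or 42 of the pathway genes. That SD covers re-estimation by the authors' software and leaves out the spread between embryos. It also leaves out genes below 1 FPKM in either estimate, such as Hk1 and Pfkm. The shifts were mostly one-sided. As log2 of second over first estimate, they ran from -0.70 to 0.01 in Tc/Tc E8 and from -0.01 to 0.60 in wild type E10. Their medians were -0.12 and 0.10, so second estimates mostly lowered the Tc/Tc over wild type ratios.

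The promoter windows of 6 genes are shown as examples from glycolysis and the citric acid cycle only. They do not stand for whole routes or for an outcome. Hk2, Pgk1, Ldha and Slc16a1 were past the rule at E10, while Ldhb and Cs, a gene of the citric acid cycle, were not. Each window is the 250 bases before an annotated transcription start, from RefSeq on GRCm38.p6, and lies outside the exons of its gene in GENCODE M21. The lines run 5′ to 3′ along the gene's own strand, and capitals mark ACGTG or GCGTG on either strand, the core letters of the hypoxia response element. The palindrome CACGTG, an E-box, holds ACGTG on both strands and is counted on both. The windows are Hk2 at chr6:82774455-82774704 on the minus strand, Pgk1 at chrX:106186850-106187099 on the plus strand, Ldha at chr7:46845554-46845803 on the plus strand, Slc16a1 at chr3:104638414-104638663 on the plus strand, Ldhb at chr6:142507958-142508207 on the minus strand and Cs at chr10:128337477-128337726 on the plus strand.
Hk2: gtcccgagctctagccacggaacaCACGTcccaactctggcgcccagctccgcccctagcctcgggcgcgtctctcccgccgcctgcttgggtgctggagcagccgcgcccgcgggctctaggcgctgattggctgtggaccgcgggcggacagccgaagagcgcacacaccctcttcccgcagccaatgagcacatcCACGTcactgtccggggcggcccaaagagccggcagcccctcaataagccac
Pgk1: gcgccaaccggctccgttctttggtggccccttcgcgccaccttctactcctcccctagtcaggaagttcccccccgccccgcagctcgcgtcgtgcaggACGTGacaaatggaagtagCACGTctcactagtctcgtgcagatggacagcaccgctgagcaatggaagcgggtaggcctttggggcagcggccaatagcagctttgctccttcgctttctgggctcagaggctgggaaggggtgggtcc
Ldha: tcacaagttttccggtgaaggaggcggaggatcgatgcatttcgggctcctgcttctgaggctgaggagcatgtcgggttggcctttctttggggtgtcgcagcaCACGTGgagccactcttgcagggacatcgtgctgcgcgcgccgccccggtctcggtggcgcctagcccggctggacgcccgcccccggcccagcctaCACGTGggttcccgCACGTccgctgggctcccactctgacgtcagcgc
Slc16a1: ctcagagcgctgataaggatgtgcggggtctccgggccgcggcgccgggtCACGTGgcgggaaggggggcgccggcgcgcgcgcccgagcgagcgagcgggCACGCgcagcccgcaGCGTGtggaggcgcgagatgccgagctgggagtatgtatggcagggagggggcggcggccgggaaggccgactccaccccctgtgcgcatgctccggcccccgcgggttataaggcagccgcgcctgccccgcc
Ldhb: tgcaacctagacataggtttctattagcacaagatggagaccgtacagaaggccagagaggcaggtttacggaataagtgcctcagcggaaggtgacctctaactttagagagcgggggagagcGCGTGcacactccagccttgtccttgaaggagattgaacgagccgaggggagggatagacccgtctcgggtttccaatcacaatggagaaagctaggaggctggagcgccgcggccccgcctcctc
Cs: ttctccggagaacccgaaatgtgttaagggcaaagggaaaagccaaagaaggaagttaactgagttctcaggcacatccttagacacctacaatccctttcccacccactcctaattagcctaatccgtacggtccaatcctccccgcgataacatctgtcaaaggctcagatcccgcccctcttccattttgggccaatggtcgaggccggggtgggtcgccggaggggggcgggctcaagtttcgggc

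The Ldha window held 5 matches, Slc16a1 4, Hk2 2, Pgk1 2, Ldhb 1 and Cs 0. Cs was not typical of the citric acid cycle, where 12 of 16 windows held a match. The printed windows were chosen after the values were seen, and match counts did not follow the E10 outcome gene by gene. A second Ldha window held 1 match, and Tpi1, past the rule at E10, held 0. Pgam1, Pdha1 and Suclg1, inside the rule, held 3 each. Of these, Pgam1 and Pdha1 were close to the rule, with E10 log2 ratios of 0.98 and 0.89, and Suclg1 was at 0.33. RefSeq windows were at hand for 44 of the 46 genes, with 63 windows in all since some genes have several starts and their windows can overlap. Slc2a3, which had the largest E10 ratio of these genes, and Idh3a had none, so the shares below leave them out. A match was present in 48 of the 63 windows (76.2%), against 12679 of 32851 windows of all genes (38.6%). The share was 27 of 34 windows (79.4%) for glycolysis, 3 of 5 (60%) for the pyruvate dehydrogenase step, 6 of 8 (75%) for the pentose phosphate pathway and 12 of 16 (75%) for the citric acid cycle. Among windows of genes that were higher in Tc/Tc at E10 it was 17 of 20 (85%), against 27 of 38 (71.1%) for the other pathway genes measured there. Median GC content was 60.4% for glycolysis, 61.6% for the pyruvate dehydrogenase step, 58.4% for the pentose phosphate pathway, 58.4% for the citric acid cycle and 52.4% for all windows, and its part in the shares was not tested. A match is a string of letters and does not show binding.

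At E10 the glycolytic genes were higher in the Tc/Tc embryo library as a group, while the citric acid cycle and the pentose phosphate pathway were close to wild type. The 23 glycolytic genes summed to 9633 FPKM in Tc/Tc and 3814 FPKM in wild type, a fold of 2.53. Glycolytic transcripts made up 1.58% of all FPKM in the Tc/Tc library and 0.637% in the wild type one. The 12 citric acid cycle genes summed to 949.9 FPKM in Tc/Tc and 806 FPKM in wild type, a fold of 1.18, and the 7 pentose phosphate genes to 316 FPKM in Tc/Tc and 266 FPKM in wild type, a fold of 1.19. With the second estimate of wild type E10 the folds were 2.09 for glycolysis, 1.05 for the citric acid cycle and 1.04 for the pentose phosphate pathway.

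**Figure D1:**
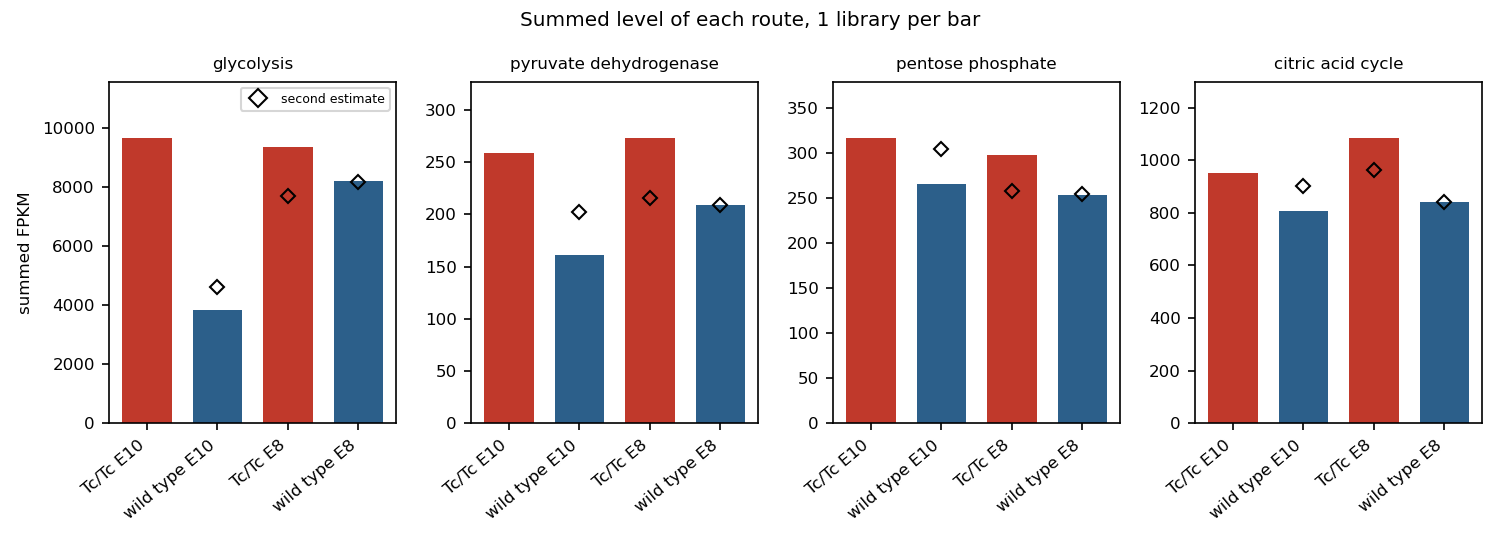
Summed FPKM of each route (vertical axes, each from 0) in the 4 libraries, with Tc/Tc in red and wild type in blue. Diamonds give the same library's value in another deposited table. The wild type E10 bar of glycolysis, at 3814 FPKM, stands below the other 3, which lie between 8186 and 9633 FPKM.

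Of 43 pathway genes measured at E10, 14 were higher in Tc/Tc and 0 were lower. Over all 14265 genes measured, 4.94% were higher and 3.08% lower, with a median log2 ratio of 0.16. The 14 genes were 13 of the 21 measured in glycolysis and the kinase Pdk1, with 0 of 6 in the pentose phosphate pathway and 0 of 12 in the citric acid cycle. The median log2 ratio was 1.21 for glycolysis, 0.64 for the 4 genes of the pyruvate dehydrogenase step, -0.01 for the pentose phosphate pathway and 0.25 for the citric acid cycle. With the median of all genes set to 0, the share of genes called over the transcriptome turned to 3.41% higher and 3.98% lower. The pathway count was then 11, without Hk2, Tpi1 and Pdk1, and the glycolytic median was 1.05.

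Glucose enters these cells through facilitative transporters, and both measured here had the largest ratios of the pathway at E10. Slc2a3 (ENSMUSG00000003153), the high-affinity transporter GLUT3, stood at 511 FPKM in Tc/Tc and 48.1 FPKM in wild type at E10, and at 929.7 FPKM in Tc/Tc and 423 FPKM in wild type at E8. Slc2a1 (ENSMUSG00000028645), the widely expressed transporter GLUT1, stood at 422 FPKM in Tc/Tc and 84.4 FPKM in wild type at E10, and at 444 FPKM in Tc/Tc and 395 FPKM in wild type at E8. Wild type E10 was the low library for both genes, and the other 3 libraries lay between 423 and 929.7 FPKM for Slc2a3 and between 395 and 444 FPKM for Slc2a1. The E10 fold was 10.6 for Slc2a3 and 5.0 for Slc2a1, with log2 ratios of 3.38 and 2.31 and second estimates of 2.97 and 2.17.

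The next steps trap glucose and commit it to breakdown. Hk2 (ENSMUSG00000000628), hexokinase 2, which phosphorylates glucose, stood at 70.6 FPKM in Tc/Tc and 31.6 FPKM in wild type at E10, and at 50.5 FPKM in Tc/Tc and 63.1 FPKM in wild type at E8. Its log2 ratio at E10 was 1.14. Hk1, the housekeeping hexokinase, was listed at 0 in both libraries at E10, and at 16.5 FPKM in Tc/Tc and 10.1 FPKM in wild type at E8. A 0 in these tables can be a failed estimate, since Hk1 was also listed at 0 for both E8 libraries in their second tables. Gpi1, the isomerase that follows, was at 164 FPKM in Tc/Tc and 111 FPKM in wild type at E10, and at 112 FPKM in Tc/Tc and 131 FPKM in wild type at E8, within the rule at both stages.

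Phosphofructokinase is the committed, regulated step of glycolysis. Pfkl, the liver-type subunit, stood at 139 FPKM in Tc/Tc and 55.4 FPKM in wild type at E10, and at 129 FPKM in Tc/Tc and 133 FPKM in wild type at E8. Pfkp, the platelet-type subunit, stood at 38.8 FPKM in Tc/Tc and 9.60 FPKM in wild type at E10, and at 30.0 FPKM in Tc/Tc and 20.8 FPKM in wild type at E8. The E10 log2 ratios were 1.31 for Pfkl and 1.91 for Pfkp, so both subunits were higher in Tc/Tc. Pfkm, the muscle-type subunit, was at 16.2 FPKM in Tc/Tc and 13.7 FPKM in wild type at E10, a log2 ratio of 0.23, and was listed at 0 in both E8 libraries of the genotype table. Pfkfb4, which makes the allosteric activator of phosphofructokinase, was at 3.71 FPKM in Tc/Tc and 3.73 FPKM in wild type at E10, and at 2.91 FPKM in Tc/Tc and 2.04 FPKM in wild type at E8. Its relative Pfkfb3 was listed at 0 in each library.

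The aldolase and triose steps were higher in Tc/Tc at E10. Aldoa, the main aldolase, stood at 929 FPKM in Tc/Tc and 316 FPKM in wild type at E10, and at 773 FPKM in Tc/Tc and 673 FPKM in wild type at E8, with a log2 ratio of 1.55 at E10. Tpi1, triose phosphate isomerase, stood at 789 FPKM in Tc/Tc and 354 FPKM in wild type at E10, and at 806 FPKM in Tc/Tc and 826 FPKM in wild type at E8, with a log2 ratio of 1.15 at E10. Again wild type E10 was the low library, below the remaining 3 for both genes. Aldoc (ENSMUSG00000017390), the brain-type aldolase, was a low gene at 4.73 FPKM in Tc/Tc and 1.46 FPKM in wild type at E10, and at 1.61 FPKM in Tc/Tc and 4.75 FPKM in wild type at E8. It passed the rule in opposite directions, with a log2 ratio of 1.22 at E10 and -1.14 at E8.

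The lower part of glycolysis recovers ATP. Gapdh, which oxidises glyceraldehyde phosphate, stood at 405 FPKM in Tc/Tc and 203 FPKM in wild type at E10, and at 295 FPKM in Tc/Tc and 297 FPKM in wild type at E8. Pgk1 (ENSMUSG00000062070), phosphoglycerate kinase, stood at 404 FPKM in Tc/Tc and 174 FPKM in wild type at E10, and at 267 FPKM in Tc/Tc and 330.0 FPKM in wild type at E8. Pgam1, phosphoglycerate mutase, stood at 246 FPKM in Tc/Tc and 124 FPKM in wild type at E10, and at 172 FPKM in Tc/Tc and 211 FPKM in wild type at E8. All 3 had their highest value in Tc/Tc E10 and their lowest in wild type E10. Pgk1 was past the rule with a log2 ratio of 1.21, while Gapdh at 0.99 and Pgam1 at 0.98 fell just short of it.

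Eno1, enolase 1, was the most abundant transcript of the pathway, at 2283 FPKM in Tc/Tc and 867 FPKM in wild type at E10, and at 2209 FPKM in Tc/Tc and 1707 FPKM in wild type at E8. Its log2 ratio at E10 was 1.40, but with the second estimate of wild type E10, 1272 FPKM, it was 0.84 and no longer past the rule. Pkm2, pyruvate kinase, stood at 1246 FPKM in Tc/Tc and 710.0 FPKM in wild type at E10, and at 1262 FPKM in Tc/Tc and 1486 FPKM in wild type at E8, with a log2 ratio of 0.81 at E10. Both enzymes complete the route to pyruvate. Eno2, the neuronal enolase, was at 2.33 FPKM in Tc/Tc and 0.834 FPKM in wild type at E10, and at 0.641 FPKM in Tc/Tc and 1.30 FPKM in wild type at E8, within the rule between genotypes.

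At the lactate end, the isoforms did not move alike at E10. Ldha (ENSMUSG00000063229), the lactate dehydrogenase subunit of glycolytic tissue, stood at 1793 FPKM in Tc/Tc and 632 FPKM in wild type at E10, and at 1522 FPKM in Tc/Tc and 1284 FPKM in wild type at E8. Ldhb (ENSMUSG00000030246), the subunit typical of oxidative tissue such as heart, stood at 28.4 FPKM in Tc/Tc and 32.7 FPKM in wild type at E10, and at 66.4 FPKM in Tc/Tc and 33.6 FPKM in wild type at E8. The E10 log2 ratio was 1.5 for Ldha and -0.20 for Ldhb. Ldhb was thus 1 of 2 glycolytic genes below 0 at E10, beside Pfkfb4 at -0.01, and at E8 its ratio was 0.96, just inside the rule.

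Lactate leaves cells through monocarboxylate transporters. Slc16a3 (ENSMUSG00000025161), the exporter MCT4, stood at 82.0 FPKM in Tc/Tc and 22.5 FPKM in wild type at E10, and at 46.9 FPKM in Tc/Tc and 60.9 FPKM in wild type at E8. Slc16a1 (ENSMUSG00000032902), the bidirectional carrier MCT1, stood at 55.4 FPKM in Tc/Tc and 18.1 FPKM in wild type at E10, and at 190.3 FPKM in Tc/Tc and 93.3 FPKM in wild type at E8. Their E10 log2 ratios were 1.82 and 1.56, folds of 3.64 and 3.05. Bsg, the chaperone that brings both carriers to the membrane, is no member of the gene set and was at 296 FPKM in Tc/Tc and 153 FPKM in wild type at E10, a log2 ratio of 0.94.

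**Figure D2:**
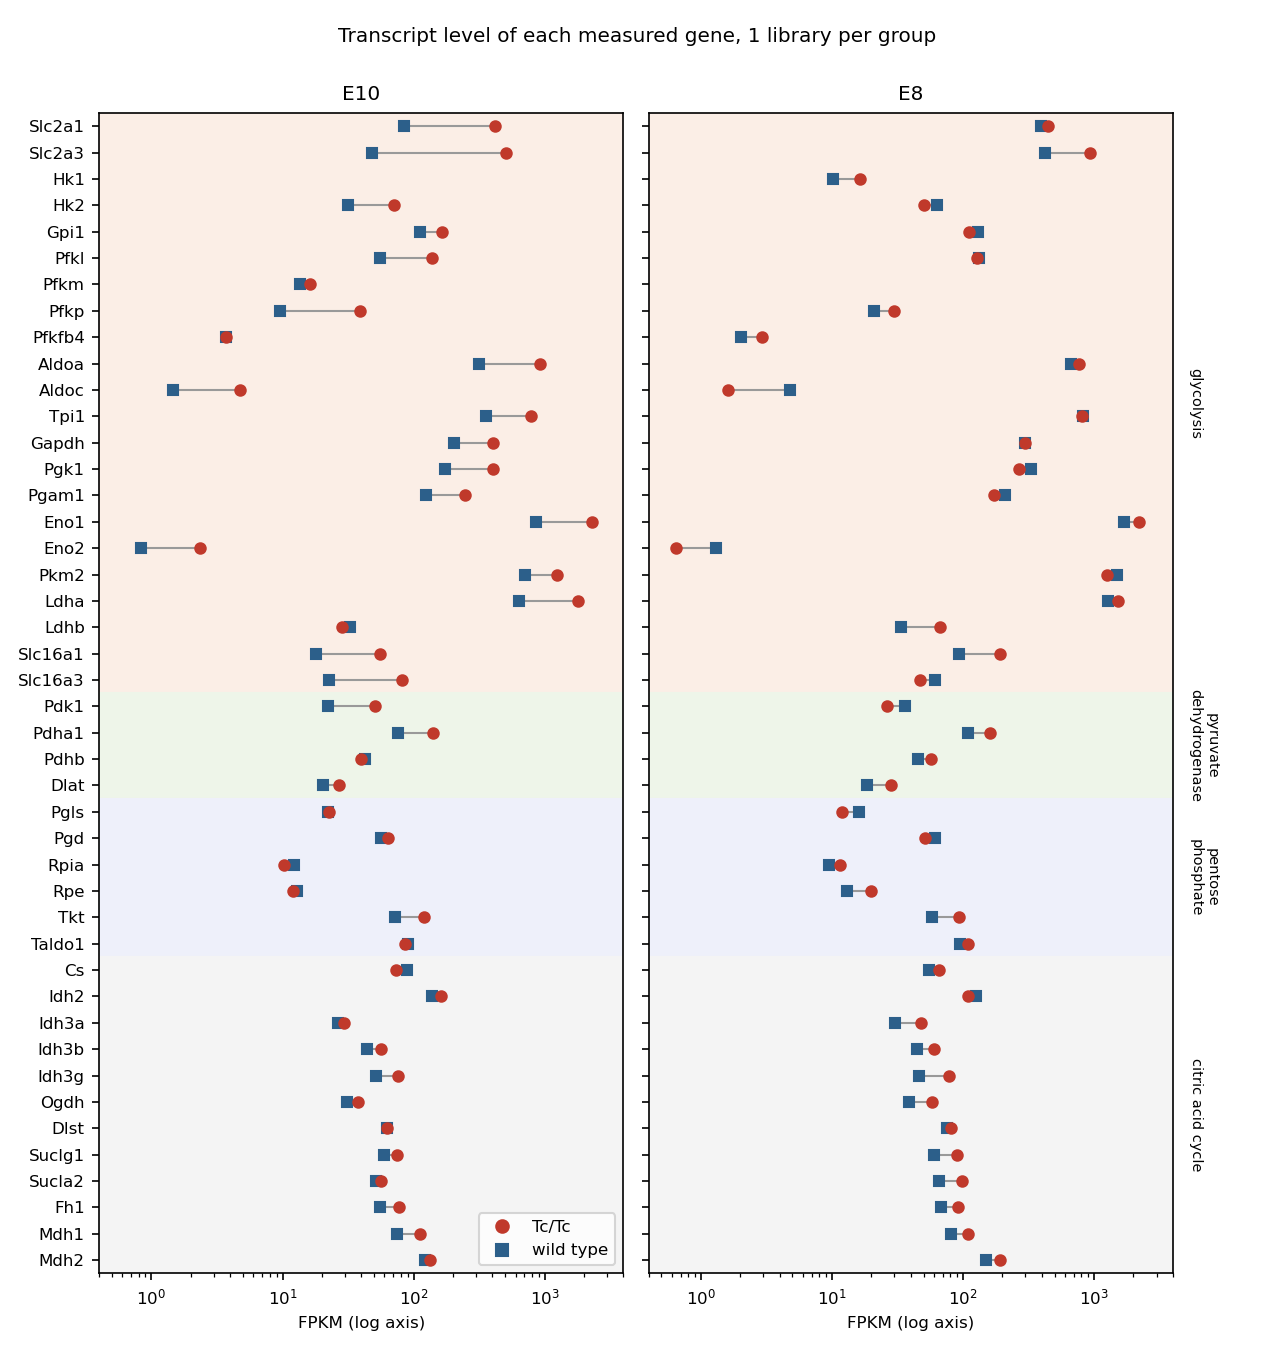
FPKM of each measured gene on a log axis at E10 (left) and E8 (right), with Tc/Tc as red circles and wild type as blue squares joined by a line, 1 library per point. At E10 the red points of glycolysis lie to the right of the blue ones except for Pfkfb4 and Ldhb, by up to a fold of 10.6 for Slc2a3. In the citric acid cycle the E10 folds run from 0.82 for Cs to 1.49 for Mdh1, which look small on this wide log axis.

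The pyruvate dehydrogenase complex stands between glycolysis and the citric acid cycle, and Pdk1 is the kinase that phosphorylates and inhibits it. Pdk1 (ENSMUSG00000006494) stood at 50.7 FPKM in Tc/Tc and 22.2 FPKM in wild type at E10, and at 26.5 FPKM in Tc/Tc and 36.1 FPKM in wild type at E8. It was higher in Tc/Tc at E10, with a log2 ratio of 1.16. Pdha1, the catalytic alpha subunit that the kinase targets, was at 142 FPKM in Tc/Tc and 75.9 FPKM in wild type at E10, and at 161 FPKM in Tc/Tc and 109 FPKM in wild type at E8. Its log2 ratio at E10 was 0.89, or 0.37 with the second estimate of wild type. Pdhb, the beta subunit, and Dlat, the acetyltransferase core, had log2 ratios of -0.11 and 0.39 at E10, so the kinase had the largest ratio of the step.

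Pentose phosphate genes lay between log2 ratios of -0.24 and 0.74 at E10. Tkt, transketolase of the non-oxidative branch, had the largest ratio, at 121 FPKM in Tc/Tc and 72 FPKM in wild type at E10, and at 93.3 FPKM in Tc/Tc and 58.1 FPKM in wild type at E8. Its E10 log2 ratio of 0.74 became 0.14 with the second estimate of wild type E10, 109.9 FPKM. Taldo1, transaldolase of the same branch, was at 86.1 FPKM in Tc/Tc and 90.1 FPKM in wild type at E10, and at 109 FPKM in Tc/Tc and 95.7 FPKM in wild type at E8. Pgd, the second NADPH-producing enzyme, was at 64.1 FPKM in Tc/Tc and 56.5 FPKM in wild type at E10, and at 51.4 FPKM in Tc/Tc and 61.4 FPKM in wild type at E8. None of these genes passed the rule between genotypes. Pgls, the lactonase of the oxidative branch, was at 22.7 FPKM in Tc/Tc and 22.1 FPKM in wild type at E10, and at 12.0 FPKM in Tc/Tc and 16.0 FPKM in wild type at E8. Rpia, ribose phosphate isomerase, was at 10.2 FPKM in Tc/Tc and 12.2 FPKM in wild type at E10, and at 11.5 FPKM in Tc/Tc and 9.5 FPKM in wild type at E8. Rpe, ribulose phosphate epimerase, was at 12.1 FPKM in Tc/Tc and 12.8 FPKM in wild type at E10, and at 19.8 FPKM in Tc/Tc and 13.0 FPKM in wild type at E8. G6pdx, the entry enzyme, was listed at 0 in each library, so the entry step was not measured.

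In the citric acid cycle the log2 ratios at E10 ran from -0.28 for Cs to 0.57 for Mdh1. Cs (ENSMUSG00000005683), citrate synthase, which starts the cycle, was at 72.9 FPKM in Tc/Tc and 89.0 FPKM in wild type at E10, and at 65.1 FPKM in Tc/Tc and 54.9 FPKM in wild type at E8. Idh2, the mitochondrial NADP-dependent isocitrate dehydrogenase, was at 163 FPKM in Tc/Tc and 138 FPKM in wild type at E10, and at 109 FPKM in Tc/Tc and 126 FPKM in wild type at E8. Neither gene was near the rule between genotypes. The NAD-dependent isocitrate dehydrogenase subunits Idh3a, Idh3b and Idh3g had E10 log2 ratios of 0.13, 0.34 and 0.56.

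Further round the cycle no gene passed the rule either. Dlst, the succinyltransferase core of the oxoglutarate dehydrogenase complex, was at 62.2 FPKM in Tc/Tc and 62.4 FPKM in wild type at E10, and at 81.2 FPKM in Tc/Tc and 76.0 FPKM in wild type at E8. Suclg1, the shared subunit of succinyl-CoA ligase, was at 74.5 FPKM in Tc/Tc and 59.2 FPKM in wild type at E10, and at 90.0 FPKM in Tc/Tc and 60.4 FPKM in wild type at E8. Their E10 log2 ratios were -0.00 and 0.33, well inside the rule. Fh1, fumarase, was at 77.1 FPKM in Tc/Tc and 55.6 FPKM in wild type at E10, and at 92.2 FPKM in Tc/Tc and 67.8 FPKM in wild type at E8. Mdh2, the mitochondrial malate dehydrogenase, was at 133 FPKM in Tc/Tc and 122 FPKM in wild type at E10, and at 192 FPKM in Tc/Tc and 149 FPKM in wild type at E8. The remaining genes, Ogdh of the oxoglutarate dehydrogenase complex, Sucla2 of the ATP-forming succinyl-CoA ligase and the cytosolic Mdh1, had E10 log2 ratios of 0.27, 0.12 and 0.57.

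**Figure D3:**
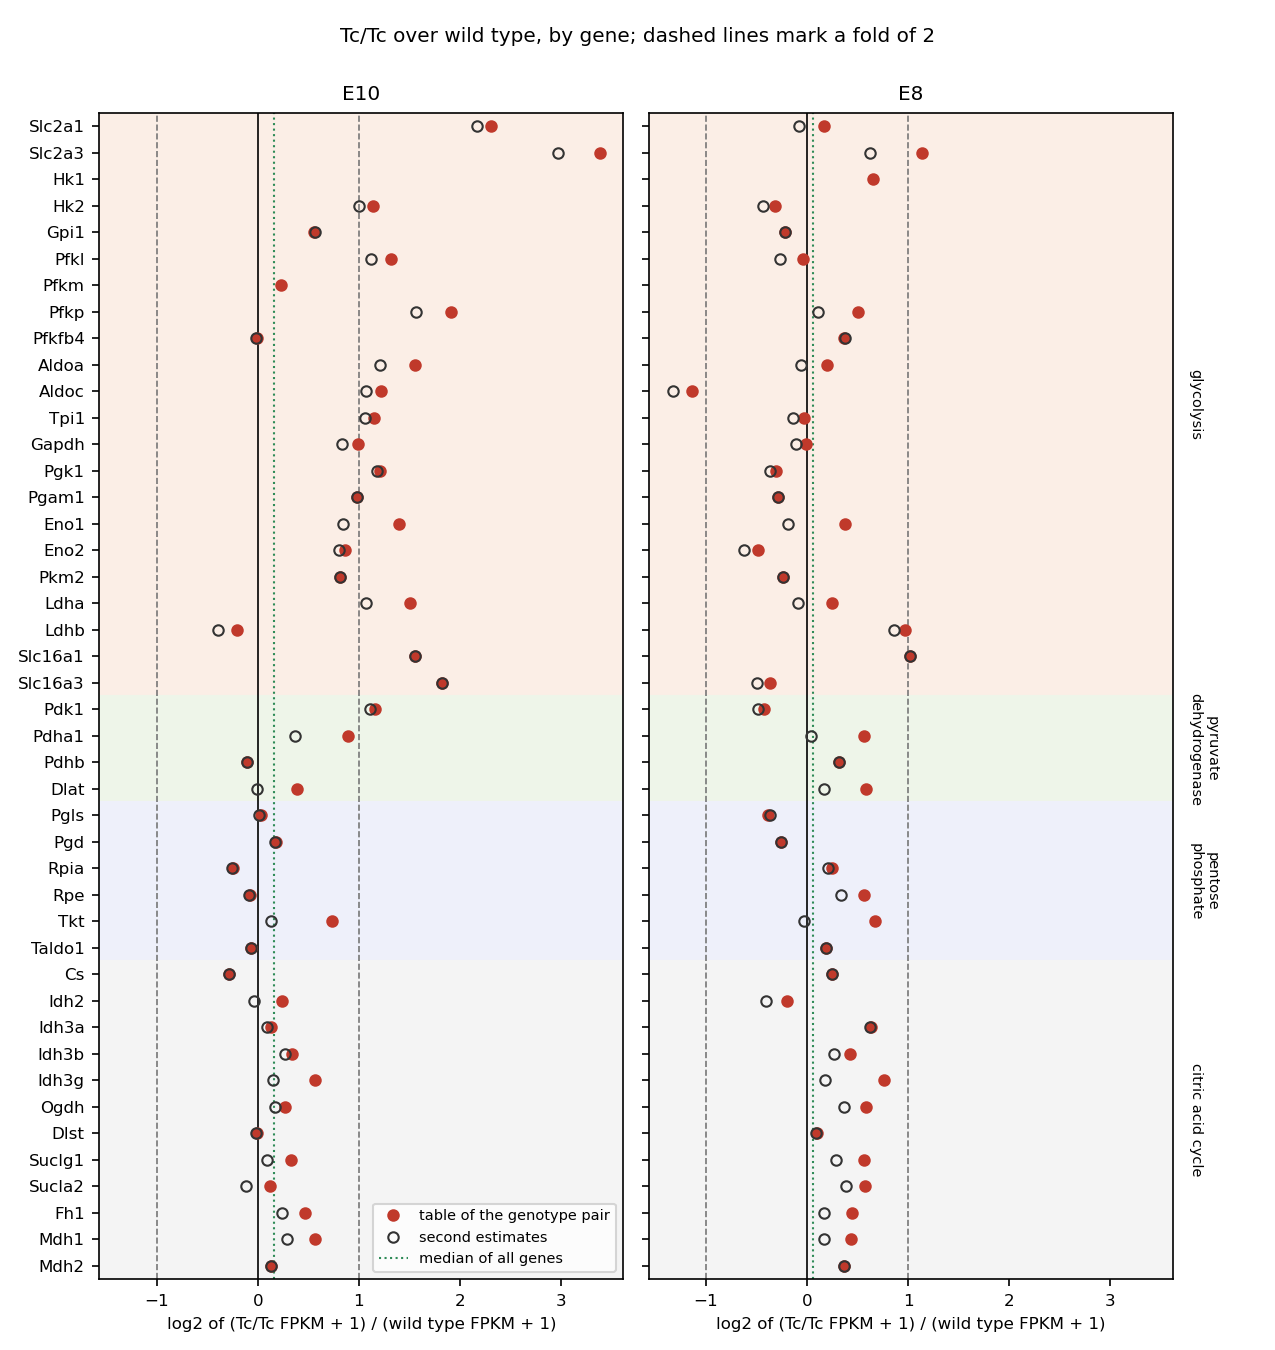
Log2 ratio of Tc/Tc over wild type for each gene at E10 (left) and E8 (right), from the table of the genotype pair (red) and from the libraries' second estimates (open), with the median of all genes dotted and a fold of 2 dashed. At E10, 13 glycolytic genes and Pdk1 lie past the right dashed line, while at E8 the glycolytic points lie on both sides of 0 around a median of -0.01.

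At E8 few pathway genes passed the rule between genotypes, and 0 of the 12 citric acid cycle genes did. Of 43 pathway genes, 2 were higher in Tc/Tc, the carriers Slc2a3 and Slc16a1, and 1 was lower, Aldoc. Over all 13547 genes measured, 4.21% were higher and 3% lower, so the pathway's shares of 4.65% and 2.33% were near the background. The median log2 ratio was -0.01 for glycolysis, with 10 of 21 genes above 0, and 0.44 for the citric acid cycle, with 11 of 12 above 0, against 0.06 over all genes. Of all genes, 7649 of 13547 lay above 0. Common reference genes had a median of 0.33 at E8, with 6 of 8 above 0. They include Sdha, at 0.53, which belongs to the citric acid cycle but not to the gene set. The exception in the cycle was Idh2 at -0.20. With the second estimates the medians were -0.17 for glycolysis and 0.26 for the citric acid cycle, and with libraries rescaled to equal totals the median of the cycle was 0.21.

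Among single genes at E8, the carriers Slc2a3 and Slc16a1 had the largest ratios above 0. The carriers Slc2a1 and Slc16a3 did not share this, with log2 ratios of 0.17 and -0.37. Slc2a3 had a log2 ratio of 1.14, a fold of 2.20, but its second estimate in Tc/Tc, 650.4 FPKM, lowered this to 0.62. That was below Ldhb, at 0.86 with the second estimates. Slc16a1 had a log2 ratio of 1.02, a fold of 2.04, with the same value from both tables. With the median of all genes set to 0 the Slc16a1 ratio was 0.97, inside the rule. Idh3g, at 78.8 FPKM in Tc/Tc and 46.0 FPKM in wild type, had the largest ratio of the citric acid cycle at E8, 0.76, or 0.18 with the second estimates. Pdk1 was on the other side of 0, with a log2 ratio of -0.43 at E8.

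Between stages, wild type showed lower glycolytic transcripts at E10 than at E8. Of 42 pathway genes, 0 were higher at E10 and 8 were lower, all glycolytic, namely Slc2a1, Slc2a3, Pfkl, Aldoc, Tpi1, Pkm2, Slc16a1 and Slc16a3. Over all 14239 genes measured, 7.36% were higher and 5.15% lower. The glycolytic median was -0.80, with 18 of 20 genes below 0, and the exceptions were Pfkfb4 at 0.66 and Ldhb at 0.16. The citric acid cycle had 6 of 12 genes above 0 and the pentose phosphate pathway 3 of 6, with medians of -0.00 and 0.13. In the genotype tables' estimates of the same libraries, 11 genes were lower, against 5.78% of all genes, and the glycolytic median was -1.03.

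The transporters had the lowest stage ratios in wild type. In the wild type stage table, Slc2a3 was at 64.1 FPKM at E10 and 423 FPKM at E8, a log2 ratio of -2.70. Slc16a1 was at 18.1 FPKM at E10 and 93.3 FPKM at E8, a log2 ratio of -2.30. Slc2a1 was at 92.9 FPKM at E10 and 395 FPKM at E8, a log2 ratio of -2.08. With Slc16a3, at -1.41, the 4 carriers had the 4 lowest stage ratios of glycolysis in wild type. Pkm2 and Tpi1, which pass little more than the rule, had log2 ratios of -1.07 and -1.12.

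In Tc/Tc the stage comparison did not show this pattern. It joins the E10 value of the genotype table with the E8 value of the Tc/Tc stage table, so both were estimated apart. Of 43 pathway genes, 3 were higher at E10, namely Aldoc, Eno2 and Tkt, and 2 were lower, Ldhb and Slc16a1. Over all 13803 genes measured, 7.72% were higher and 3.78% lower, with a median of 0.13. Of 21 glycolytic genes, 17 lay above 0, with a median of 0.52, and 14 of 20 lay above 0 with a median of 0.27 when Tc/Tc E8 was taken from its genotype table. The citric acid cycle had a median of 0.01.

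The 2 stage comparisons share no library. For Slc2a1 the stage ratio was 0.17 in Tc/Tc, against -2.08 in wild type. For Slc2a3 it was -0.35 in Tc/Tc, against -2.70 in wild type. Slc16a3, the lactate exporter, had 0.91 in Tc/Tc and -1.41 in wild type. Slc16a1 was an exception, with -1.76 in Tc/Tc and -2.30 in wild type, lower at E10 in both. Ldhb was at 28.4 FPKM at E10 and 61.7 FPKM at E8 in Tc/Tc, a log2 ratio of -1.09, against 0.16 in wild type. Tkt had 1.07 in Tc/Tc and 0.91 in wild type, above 0 in both, with 0.37 in Tc/Tc and 0.30 in wild type from the other estimates.

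**Figure D4:**
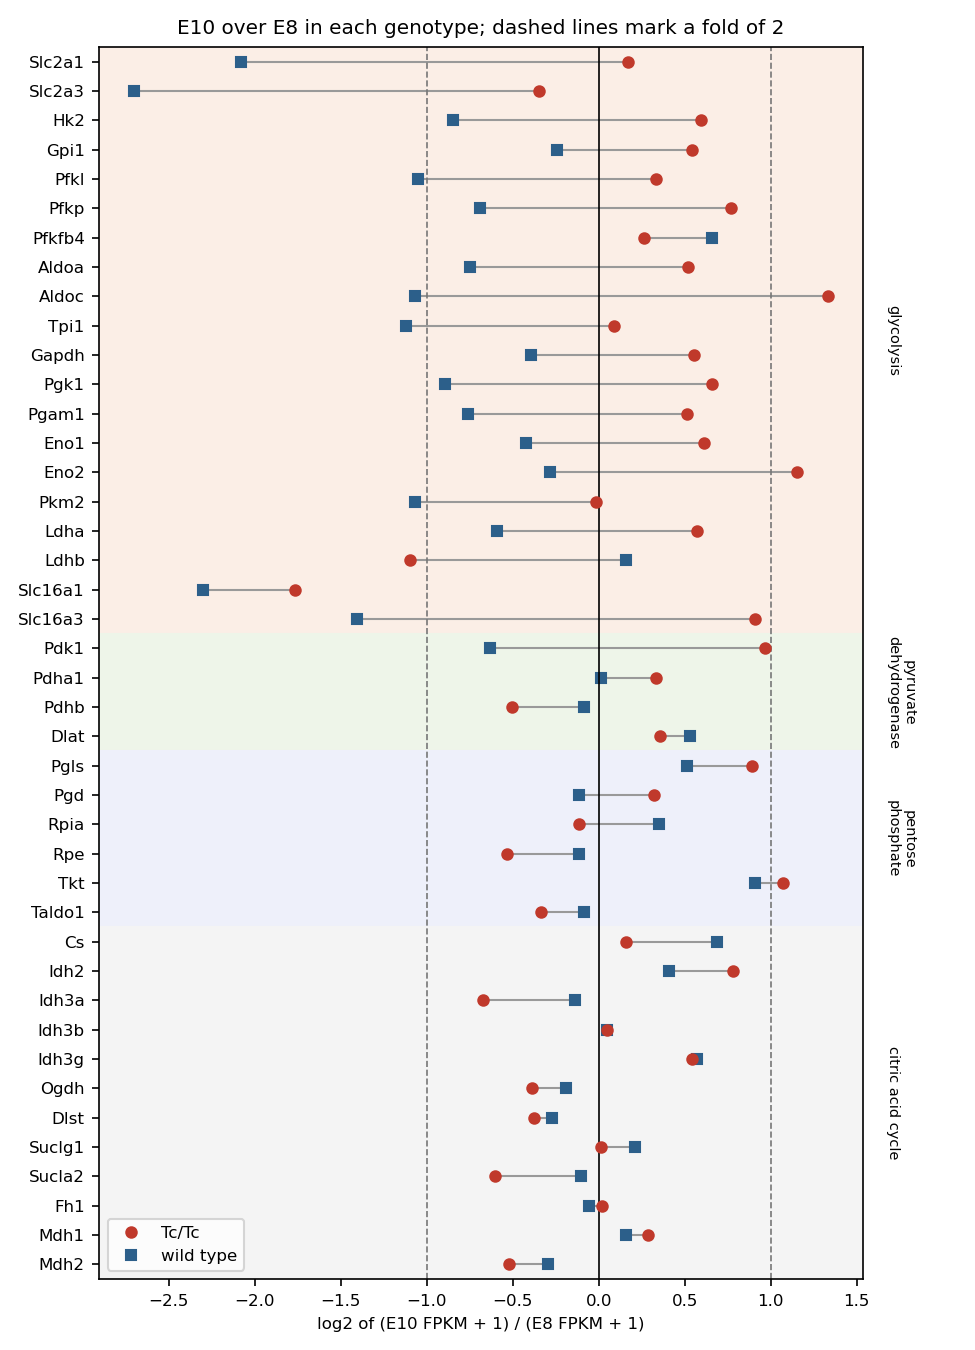
Log2 ratio of E10 over E8 for each gene in Tc/Tc (red) and in wild type (blue), with a fold of 2 dashed. In glycolysis the blue points lie to the left of the red ones except for Pfkfb4 and Ldhb, with medians of 0.52 in Tc/Tc and -0.80 in wild type, while in the citric acid cycle both medians are close to 0.

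The level of a glycolytic gene in the Tc/Tc E10 library was nearer, on the log2 scale, to wild type E8 than to wild type E10 for 18 of 20 genes (90%). With second estimates the number was 19 of 20 (95%). For the citric acid cycle it was 6 of 12 genes, or 3 of 12 with second estimates, and for the pentose phosphate pathway 2 of 6. Over all 13871 genes it was 57.4%, and with second estimates 52.6% of 13937 genes. The glycolytic count restates the E10 genotype ratios and the wild type stage ratios. All of these rest on the same single wild type E10 library, so the count is no separate observation. The comparisons of this paragraph set values from separate tables side by side.

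Where a step has several isoforms, their shares of the step's summed FPKM also differed. Slc2a3 made up 54.8% of both glucose transporters in Tc/Tc and 36.3% in wild type at E10, and 67.7% in Tc/Tc and 51.7% in wild type at E8. Ldhb made up 1.56% of lactate dehydrogenase in Tc/Tc and 4.92% in wild type at E10, and 4.18% in Tc/Tc and 2.55% in wild type at E8. For glucose uptake the Slc2a3 share was higher in Tc/Tc at both stages, while for lactate dehydrogenase the order of the genotypes turned between stages. Slc16a3 made up 59.7% of the 2 monocarboxylate carriers in Tc/Tc and 55.4% in wild type at E10, and 19.8% in Tc/Tc and 39.5% in wild type at E8. Pfkp made up 20.0% of phosphofructokinase in Tc/Tc and 12.2% in wild type at E10, and 18.9% in Tc/Tc and 13.5% in wild type at E8. These shares depend on Pfkm, which is listed at 0 in some tables, and with second estimates Pfkp made up 16.3% in wild type at E10 and 15.4% in Tc/Tc at E8. Aldoc was at most 0.700% of aldolase and Eno2 at most 0.102% of enolase, so Aldoa and Eno1 carried these steps in each library.

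**Figure D5:**
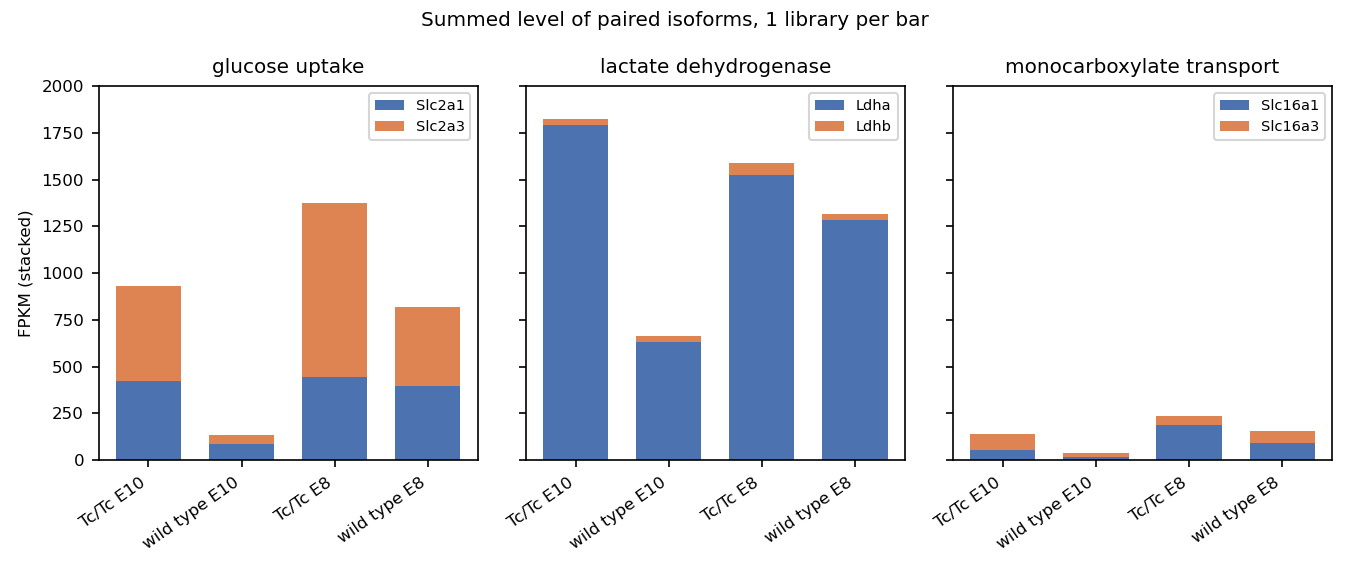
Stacked FPKM (vertical axis, from 0) of the isoforms of glucose uptake, lactate dehydrogenase and monocarboxylate transport in the 4 libraries. Glucose uptake totals 933 FPKM in Tc/Tc and 132 FPKM in wild type at E10, and 1374 FPKM in Tc/Tc and 818 FPKM in wild type at E8.

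Other genes of these pathways, not part of the gene set, gave a mixed picture. Of 17 other glycolytic and gluconeogenic genes measured at E10, 3 were higher in Tc/Tc and 2 lower, against 4.94% and 3.08% of all genes. Slc2a2, the glucose transporter of liver and yolk sac, was at 8.44 FPKM in Tc/Tc and 0.0921 FPKM in wild type at E10, and at 44.8 FPKM in Tc/Tc and 13.4 FPKM in wild type at E8. It was higher in Tc/Tc at both stages. Hkdc1 and Fbp2 were the remaining 2 that were higher at E10, and Hk3, a hexokinase of myeloid cells, and Pklr, the pyruvate kinase of liver and red cells, were lower.

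Genes next to the mitochondrial routes came in short lists, to be read beside all genes at E10, with 4.94% higher and 3.08% lower. Counts of 0 or 1 in such lists were near those shares. Idh1, the cytosolic isocitrate dehydrogenase, was at 30.9 FPKM in Tc/Tc and 69.3 FPKM in wild type at E10, and was the 1 gene of 13 on the other citric acid cycle list that was lower, with 0 higher. Of 9 other genes of the pyruvate gate 0 passed the rule, and of 4 other pentose phosphate genes 0 did. Brp44 and Brp44l, the subunits of the mitochondrial pyruvate carrier, had log2 ratios of -0.65 and -0.90. Both were inside the rule as reported. Brp44l was past it at -1.15 with the second estimate of wild type, where 3.3% of all genes were lower. It was also past it at -1.06 with the median of all genes set to 0, where 3.98% were lower.

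Genes of the hypoxia response outside glycolysis moved in the same comparison. Of 13 measured at E10, 4 were higher in Tc/Tc and 0 lower, with a median log2 ratio of 0.72 and 12 above 0. Over all genes measured, 4.94% were higher and 3.08% lower, with a median of 0.16 and 9542 of 14265 above 0. Bnip3, a mitophagy receptor, had a log2 ratio of 2.42, Ndrg1, a stress-response gene, 1.59, Egln3, an oxygen-sensing prolyl hydroxylase, 1.41 and Ddit4, an inhibitor of mTOR signalling, 1.18. At E8 0 of 13 passed the rule and the median was -0.17, against 4.21% higher, 3% lower and a median of 0.06 over all genes. Of regulators such as Hif1a, Myc and Trp53, 0 of 8 measured at E10 and 0 of 9 measured at E8 passed the rule between genotypes, and Hif1a transcript was at 56.4 FPKM in Tc/Tc and 48.4 FPKM in wild type at E10. The part of oxygen supply in the values above was not tested.

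Markers of several tissues also differed between the libraries. At E10 all 15 visceral endoderm and yolk sac markers were higher in Tc/Tc, summing to 729 FPKM in Tc/Tc and 22.0 FPKM in wild type, with Apoa4, Apoc2, Amn and Spink3 listed at 0 in wild type. Neuronal markers were lower in 9 of 11, summing to 30.2 FPKM in Tc/Tc and 114 FPKM in wild type, with Neurod1 and Neurod4 listed at 0 in Tc/Tc. Erythroid markers were lower in 4 of 10, summing to 2192 FPKM in Tc/Tc and 6131 FPKM in wild type, and cardiac markers were higher in 3 of 9, summing to 948 FPKM in Tc/Tc and 576 FPKM in wild type. At E8 yolk sac markers were higher in 13 of 14, summing to 3318 FPKM in Tc/Tc and 1051 FPKM in wild type. Cardiac markers were lower in 8 of 8, summing to 23.5 FPKM in Tc/Tc and 411 FPKM in wild type. Neuronal markers passed the rule in 0 of 6 at that stage, and of 7 erythroid markers 1 was higher and 2 were lower. Over all genes, 4.94% were higher and 3.08% lower at E10, and 4.21% higher and 3% lower at E8. The part of these tissues in the glycolytic values was not tested.

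Common reference genes gave a median log2 ratio of 0.32 at E10 over 8 genes. Of these, 1 was past the rule, Ywhaz, with a log2 ratio of 1.23 that was 0.34 with the second estimate of wild type. Actb had 0.50, or 0.15 with the second estimate. For Ldha, Pgk1, Pgam1, Gapdh, Aldoa and Tpi1, GENCODE M21 names processed pseudogenes, so their FPKM is uncertain where reads could be split between copies.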

How the data were processed

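Whole-embryo RNA of 4 groups, 1 library each, was analysed from 4 pairwise tables of 36808 genes. The deposited FPKM values were made with Bowtie2, Cuffdiff and the mouse build mm9, per the submitters' processing notes; the sources used here give no versions and no gene annotation. RNA was taken with TRIzol LS and libraries were made with ScriptSeq v2, per the labels' protocols.

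E8 and E10 genotype ratios used their own tables; the wild type and Tc/Tc stage tables gave stage ratios and second estimates. The Tc/Tc stage table has 1 value column headed as wild type E10 that was left unused: the natural log fold changes that the authors deposited there match Tc/Tc E10 over Tc/Tc E8 within 0.01 for 86.4% of 16884 genes; with wild type E10 on top it is 2.74%. Ratios are log2 with 1 FPKM added, over genes at 1 FPKM or more in 1 or both libraries, and the rule was a fold of 2. Genes at 0 in both libraries were not estimated, and 143 symbols on more than 1 gene were not used. FPKM depends on the other RNA in a library. No test was possible with 1 library per group, and no counting interval could be had without the depth.

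Members and lists were chosen with earlier results of these data known. Genes past the rule and the most abundant gene of each step were given in full. Alternatives were other pseudocounts, no minimum, a minimum of 5 FPKM, rescaling to equal totals, centring on the median, second estimates and a fold of 1.5. Python 3.11.15, pandas 2.3.3, numpy 2.4.6 and matplotlib 3.10.9 were used, and the ratio code was tested on simulated data. RefSeq promoters are of GRCm38.p6, another build than the files. A further result is not reported here.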

Additional observations from a re-analysis of the deposited data

Results flagged for a closer look

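Aldoc, the brain-type aldolase, had genotype ratios on opposite sides of 0 at the 2 stages, with log2 ratios of 1.22 at E10 and -1.14 at E8. Its stage ratios also went opposite ways, at 1.33 in Tc/Tc and -1.07 in wild type. It was picked out because the single library of each group moved opposite ways, and the difference was not tested. The levels behind these ratios were 1.27 to 4.75 FPKM, and with 5 FPKM added Aldoc was not past the rule in any of them.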

How the results depend on the processing

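No paired analysis was possible because each group has 1 library. At E10, 11 to 20 pathway genes were higher in Tc/Tc over the 8 alternatives and 0 were lower in each. Over all genes at E10, the higher count ran from 272 of 14265 with 5 FPKM added to 2108 of 14265 at a fold of 1.5. The lower count ran from 147 to 953 under the same settings. In what follows, brackets give the same count over all genes. At E8 the count of 2 higher genes became 1 with 5 FPKM added (205 of 13547). It was 0 with libraries rescaled to equal totals (385 of 13547) and 1 with the median centred (508 of 13547). With second estimates it was 1 (358 of 13250), and at a fold of 1.5 it was 8 (1470 of 13547). The 1 lower gene was 0 with 5 FPKM added (102 of 13547) or a minimum of 5 FPKM (204 of 9470). For E10 over E8 in wild type, 3 of 42 pathway genes were higher and 15 lower at a fold of 1.5. Over all 14239 genes, 2309 were higher and 1832 lower at that fold. In Tc/Tc, the 3 higher genes became 1 with 5 FPKM added (326 of 13803) and 1 with a minimum of 5 FPKM (644 of 9668). They became 6 with rescaling (1385 of 13803) and 11 at a fold of 1.5 (2648 of 13803). With the median centred (837 of 13803) or second estimates (855 of 13717) they became 2, both without Tkt. The 2 lower genes became 1 with 5 FPKM added (215 of 13803) and 1 with rescaling (428 of 13803). At a fold of 1.5 the lower genes were 4 (1279 of 13803). Rescaling moved the median log2 ratio of all genes to -0.15 at E8 and to 0.26 in the Tc/Tc stage comparison. The cause of these changes was not tested, apart from the wider rule at a fold of 1.5. Of 205 single-gene values under the alternatives other than the fold of 1.5, 180 moved by less than the SD between estimates. Of the rest 25 moved by more, and 0 changed sign past the rule, while 18 values of genes past the rule fell inside it. Of 112 route medians, 100 moved by less than that SD. Here the SD was taken over all genes between both estimates of a comparison's ratio, and was 0.163 to 0.258 by comparison. It rests on the second estimates, which were also 1 of the alternatives. Low genes such as Aldoc and Eno2 are limited by the unknown depth.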
